A study of Mus musculus with 4 samples.

Results

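The cells described here were fibroblasts of 4T1 mouse mammary tumours in which neither Lrrc15, the gene of a membrane protein found on matrix-depositing tumour myofibroblasts, nor more than 1 molecule of Dpt, the gene of the matrix protein dermatopontin, was read. They were selected on transcripts counted by unique molecular identifiers (UMIs). A barcode with 300 or more genes and at most 15% of UMIs from mitochondrial genes was a member if Col1a1, Col1a2 and Col3a1 together held at least 1% of its UMIs, Dcn had at least 1 UMI, Dpt fewer than 2, Lrrc15 and Ptprc none and Rgs5 fewer than 3, and if it had at least 5000 UMIs. These conditions were met by 163 of the 32133 cells kept, or 0.507% (95% exact binomial interval 0.433% to 0.591%, counting error only). The cells came from 33064 barcodes in 4 libraries.

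The tumours were grown in female BALB/c mice of 6 to 8 weeks from 1000000 4T1 cells in 25 µl, injected with PBS or with TIOs (the T-cell-inspired oncolytic system of the study) on day 7, given light of 980 nm at 1.0 W/cm2 (5 min each on day 8, day 9 and day 10), and taken on day 13. 4T1 is an established mammary carcinoma line of BALB/c origin, so the strain does not tell host cells from grafted ones. Of the 4 samples, 2 were labelled PBS, 1 was labelled TIOs with near-infrared light (TIOs+NIR), and 1 was titled PBS but described as injected with TIOs and was put in no group. Light was given to the PBS mice as well. All samples were enriched by sorting for CD45, the leucocyte protein encoded by Ptprc, which fibroblasts lack, so the shares given here are those of cells that passed this sort. No label tied a barcode suffix to a sample, so the 4 libraries are called libraries 1 to 4, their treatments are unknown, and no comparison of treatments was made.

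Fibroblasts make and remodel the collagen matrix of connective tissue. In mouse tissues Dpt is expressed widely in resting, universal fibroblasts, from which more specialised states are thought to arise, and in tumours Lrrc15 is expressed by a contractile, matrix-producing state. Fibroblasts far from blood vessels respond to low oxygen through hypoxia-inducible factors, which bind short DNA sites with the core letters ACGTG or GCGTG and switch on glucose uptake, glycolysis and vessel growth factors.

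The collagens, Dcn, Dpt, Lrrc15, Ptprc and Rgs5 chose the members, so their values are a description. Applied without its limits on Dpt and Lrrc15, the same gate held 1847 fibroblasts, of which 163 were members, 1006 were Dpt-positive (Dpt at least 2, Lrrc15 none) and 678 were Lrrc15-positive (Lrrc15 at least 1). Of the members, 80 had no Dpt UMI and 83 had 1. Just outside the limits lay 80 cells with 2 Dpt UMIs and 86 with 3, 44 with 1 Lrrc15 UMI, and 59 with 1 Ptprc UMI. Members with 5000 to 6000 UMIs numbered 12, against 14 otherwise eligible cells with 4000 to under 5000. Collagens at 1 to 1.2% of UMIs were found in 22 members and at 0.8% to under 1% in 27 cells outside. For Rgs5, 10 members had 1 or 2 UMIs and 1 cell outside had 3 or 4. Cells thus lay close on either side of the limits, with few beyond that on Rgs5.

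Library 1 held 5 members, library 2 held 59, library 3 held 50 and library 4 held 49. As a share of the gate this was 4.76% (1.56% to 10.8%) in library 1, 6.39% (4.90% to 8.17%) in library 2, 11.4% (8.59% to 14.8%) in library 3 and 12.9% (9.67% to 16.6%) in library 4. The intervals of libraries 3 and 4 lay above that of library 2, but they cover counting of cells in single libraries, and the order was not kept at every depth: above 40000 UMIs members were 6.45% of the gate in library 2, 5.10% in library 3 and 3.17% in library 4. In library 1 Lrrc15-positive cells made up 88.6% of the gate, against 44.5%, 21.0% and 21.5% in libraries 2, 3 and 4.

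The members were shallower than their neighbours. Their median was 14610 UMIs in library 2, 22309.5 in library 3 and 24302 in library 4, against 20865, 26626.5 and 31715.5 for Dpt-positive cells and 28153, 32404.5 and 44500.5 for Lrrc15-positive cells. Over the 163 members the lowest count was 5045, the median 18389 and the highest 100545. Members were 22.9% of gated cells of 5000 to 10000 UMIs (44 of 192), 8.51% at 10000 to 20000 (40 of 470), 7.49% at 20000 to 40000 (60 of 801) and 4.95% above that (19 of 384). When every cell was thinned to 5000 UMIs and the rule read again, 405 Dpt-positive cells (40.3%) and 196 Lrrc15-positive cells (28.9%) also met it. The members are therefore cells in which at most 1 Dpt UMI and no Lrrc15 UMI was read, and a low level and a shallow reading cannot be told apart cell by cell.

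**Figure D1:**
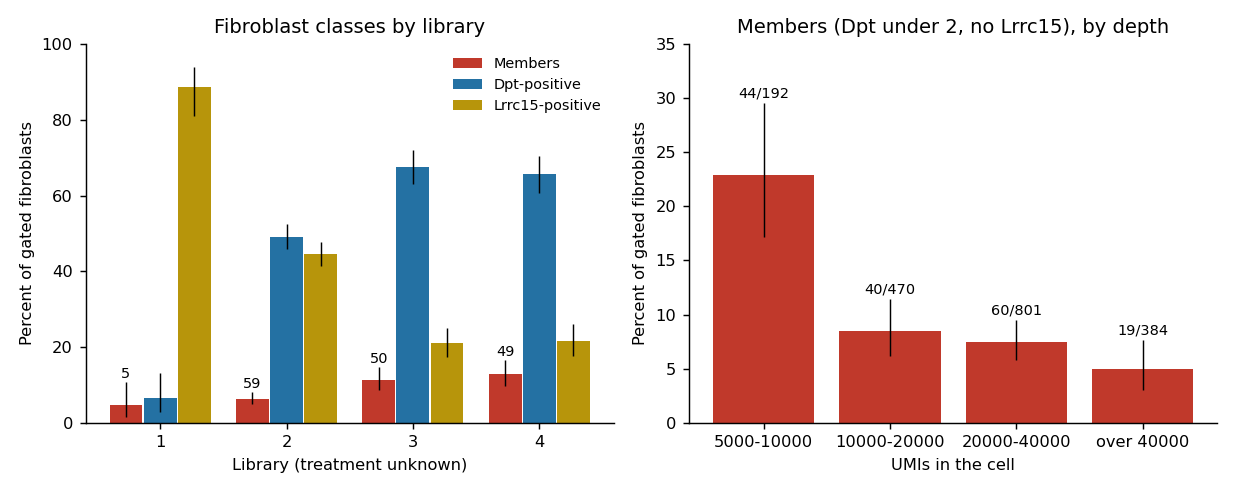
Left, percent of gated fibroblasts in each class (bars) by library, with 95% exact binomial intervals (counting error only) and the number of members above their bar; right, percent of gated fibroblasts that were members by UMIs in the cell, with the cells behind each bar. The share of members was 22.9% in the shallowest cells and 4.95% in the deepest.

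As a class, the members held fibroblast markers beyond those of the rule, but not every subcluster described below had raised ones. Among the 20 further fibroblast markers none was at 0 in the members, and none was called different from either neighbour. Their folds leaned downwards. Against Dpt-positive cells 11 were below 0 in each library and 3 above, at a median log2 fold of -0.29. Against Lrrc15-positive cells 10 were below and 2 above, at -0.27. Sparc, a collagen-binding glycoprotein, was the most abundant of these markers at 7286 counts per 1000000 UMIs (CPM). Pdpn, the surface glycoprotein podoplanin, stood at 500, 597 and 605 CPM in libraries 2, 3 and 4, the surface protein Thy1 at 296, 375 and 230 CPM, and the platelet-derived growth factor receptor Pdgfra at 195, 270 and 341 CPM. Leucocytes were taken as kept cells with Ptprc at least 2, at least 5000 UMIs and the 3 collagens under 0.5% of UMIs. In leucocytes of the same libraries Pdgfra stood at 6.40, 26.95 and 16.1 CPM. Thy1 stood at 42.4, 90.1 and 25.3 CPM and Pdpn at 72.4, 247 and 98.5 CPM. The members lay above the leucocytes for each of these genes in each of these libraries, by least for Pdpn in library 3. Some leucocytes make Thy1 or Pdpn themselves, so their values are a comparison and not a measure of free RNA.

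Several defining markers of other cell types had no UMI in any member: Sox10 of Schwann cells, Higd1b of pericytes, Adipoq of adipocytes, Msln, Upk3b and Lrrn4 of mesothelium, and Krt5, Krt15, Krt1 and Trp63 of keratinocytes. The rest of the adipocyte and mural lists was read. The 6 adipocyte markers summed to 740, 1045 and 1146 CPM in libraries 2, 3 and 4, against 173, 97.5 and 180 CPM in leucocytes and 1422, 1540 and 1275 CPM in Dpt-positive cells. Most of this was Lpl, lipoprotein lipase, at 525, 762 and 927 CPM in the members. The 10 mural markers summed to 1063, 977 and 1270 CPM, against 69.1, 134 and 52.5 CPM in leucocytes and 371, 489 and 481 CPM in Dpt-positive cells, and Ndufa4l2 was the most abundant of them. The part of adipocytes or mural cells in these values was not tested. The 9 endothelial markers summed to 35.8, 20.8 and 16.0 CPM in libraries 2, 3 and 4, below the 165, 93.3 and 75.5 CPM in leucocytes. The 11 myeloid markers summed to 543, 1022 and 990 CPM, against 13080, 13915 and 21841 CPM in leucocytes. S100a9 was the most abundant of them at 299 CPM over all members, and the list summed to 723, 588 and 967 CPM in Dpt-positive cells.

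Epithelial markers split the libraries. The list of 10 epithelial or tumour markers summed to 630 CPM in the 5 members of library 1, but to 47.7, 44.4 and 40.4 CPM in libraries 2, 3 and 4, and leucocytes of library 1 held 2007 CPM. Dpt-positive cells held 514 CPM in library 1 and 36.8, 9.47 and 10.1 CPM in libraries 2, 3 and 4, and Lrrc15-positive cells held 793 CPM in library 1 and 47.3, 12.3 and 19.1 CPM in the others. After thinning to 5000 UMIs, 6 of 163 members (3.68%, 1.36% to 7.84%) had 3 or more UMIs on the list, of which 4 were in library 1, against 0.596% of Dpt-positive and 6.49% of Lrrc15-positive cells. Unthinned, 23 members (14.1%) did. The keratin Krt19 was the most abundant gene of the list, at 22.4, 42.6 and 37.8 CPM in libraries 2, 3 and 4 against 4.51, 7.67 and 8.83 CPM in Dpt-positive cells. It was the 1 gene of the list abundant enough to be tested against them and was called higher, with a median log2 fold of 1.34, while Krt18 was at 5.96 CPM in library 2 and had no UMI in libraries 3 and 4. The part of tumour cells or their RNA in these values was not tested, and library 1 entered no gene comparison because it held fewer than 20 members.

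Genes were compared inside libraries 2, 3 and 4, each with at least 20 cells of both classes. UMIs were summed per class, scaled to CPM, and the log2 fold of CPM + 10 was taken in each library, which understates the fold of low genes. A gene was called when its median fold over the libraries was at least 2 and all had 1 sign. There is no replicate of known treatment behind these folds, cells are not replicates, and the classes were cut from the same cells by genes that vary with many others, so no p-value was computed. Both comparisons share the members, so they are not independent of each other.

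Against Dpt-positive fibroblasts, 53 of 6182 genes were called higher in the members, or 0.857%, and 55 lower, or 0.89%. The median log2 fold of all genes tested was -0.06. Serpinb2, Pgf and Cyp26b1 were among the genes with the largest folds upwards, and Sfrp4, Clec3b and Igfbp4 among those downwards.

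Serpinb2, which encodes an inhibitor of plasminogen activators (chr1:107511423-107535478, GRCm38), led the higher genes. It stood at 1568 CPM in library 2 (95% Poisson interval 1502 to 1636), 598 in library 3 (553 to 645) and 1225 in library 4 (1163 to 1290), against 235, 137 and 111 CPM in Dpt-positive cells. The 2 classes did not overlap over libraries, and the median log2 fold was 2.69. A Serpinb2 UMI was found in 38 of 59, 14 of 50 and 35 of 49 members, so a minority of members in library 3 carried the signal there. After thinning, such a UMI was found in 59.3%, 22% and 57.1% of members of libraries 2, 3 and 4. In Lrrc15-positive cells these shares were 51.8%, 35.9% and 26.8%, so in library 3 the members lay below them. In Dpt-positive cells the shares were 19.4%, 10.5% and 15.6%. Pgf, placental growth factor, a relative of Vegfa, stood at 127, 198 and 178 CPM in members against 44.8, 26.98 and 21.0 in Dpt-positive cells. Its median log2 fold was 2.49. Cyp26b1, an enzyme that breaks down retinoic acid, stood at 221, 149 and 259 CPM against 32.1, 33.1 and 44.4, a median log2 fold of 2.31.

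Spp1, osteopontin, was at 1421, 3733 and 1748 CPM in members against 349, 798 and 547 CPM. Leucocytes held 1017, 1413 and 2690 CPM of Spp1, so the level of the members in library 4 lay below theirs. Igfbp3, a carrier of insulin-like growth factors, was at 339, 285 and 137 CPM against 92.3, 89.8 and 37.9. Nos2, inducible nitric oxide synthase, was at 87.2, 36.2 and 89.96 CPM against 18.8, 8.51 and 11.9. Each of these had its lowest member library above its highest Dpt-positive library.

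Cck, Cox4i2, Crabp1, Sema3a, Ero1l and Car4 completed the 12 largest. Cck, the gene of the peptide cholecystokinin, was at 50.7, 40.8 and 53.0 CPM against 2.21, 1.44 and 1.72. Few members carried it: a Cck UMI was found in 2 of 75, 5 of 45, 9 of 31 and 0 of 12 cells of the 4 subclusters described below. Car4, a membrane carbonic anhydrase, was called with a median log2 fold of 1.54, but library 3 gave 0.07, and it was no longer called under several other settings. Crabp1, a retinoic acid-binding protein, gave 1.74, 2.21 and 0.79.

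Among the lower genes, the secreted Wnt inhibitor Sfrp4 had the largest fold. It was at 23.1 CPM in library 2 (15.7 to 32.8), 9.06 in library 3 (4.34 to 16.7) and 16.0 in library 4 (9.62 to 24.9), against 249.4, 97.0 and 88.4 CPM, with a median log2 fold of -2.49. Its relative Sfrp1 was at 83.5, 82.4 and 17.7 CPM against 273, 270 and 108. Clec3b, tetranectin, was at 142, 29.9 and 177 CPM against 956, 149 and 472. Igf1 was at 128, 122 and 17.7 CPM against 399, 323 and 217, and its binding protein Igfbp4 at 628, 803 and 441 CPM against 2315, 2502 and 955. For Sfrp4, Sfrp1, Igf1 and Igfbp4 the classes did not overlap over libraries. For Clec3b library 3 was low in both classes, and the order held inside each library.

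Others lower were Mme and Ace, membrane peptidases, Gas6, a ligand of TAM receptors, the chemokine Cxcl13 and the antimicrobial lectin Reg3g. Reg3g had 3 UMIs in the members of library 2 and none in libraries 3 and 4, and 584, 218 and 30 UMIs in Dpt-positive cells. Its CPM upper limits in members, 6.54, 3.34 and 3.10, lay below the 53.8 and 26.1 CPM of Dpt-positive cells in libraries 2 and 3, and in library 4 the intervals overlapped. In library 1, which was not compared, 1 of the 5 members held 16 Reg3g UMIs.

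Of the 20 Dpt-linked genes, all tested, 3 were called lower against the Dpt-positive cells (Cd34, Ly6c1 and Clec3b) and none higher. Over all genes 0.89% were called lower. In the list 14 genes were below 0 in each library, and the median log2 fold was -0.69. This follows the way the members were chosen and supports nothing further. Cd34, a surface sialomucin of resting fibroblasts, stood at 118, 81.5 and 101 CPM against 376, 151 and 229. With library 3 left out the count was 6, and with library 4 left out 7. Of 26 growth factor and Wnt genes, 19 were tested, 6 were lower (Sfrp1, Sfrp2, Sfrp4, Igf1, Igfbp4 and Igfbp5) and 2 higher (Wnt5a and Igfbp3). Of 8 complement genes tested, C3 and C4b were lower and none was higher. Beside the counts of both lists stand 0.89% of all genes called lower and 0.857% called higher.

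**Figure D2:**
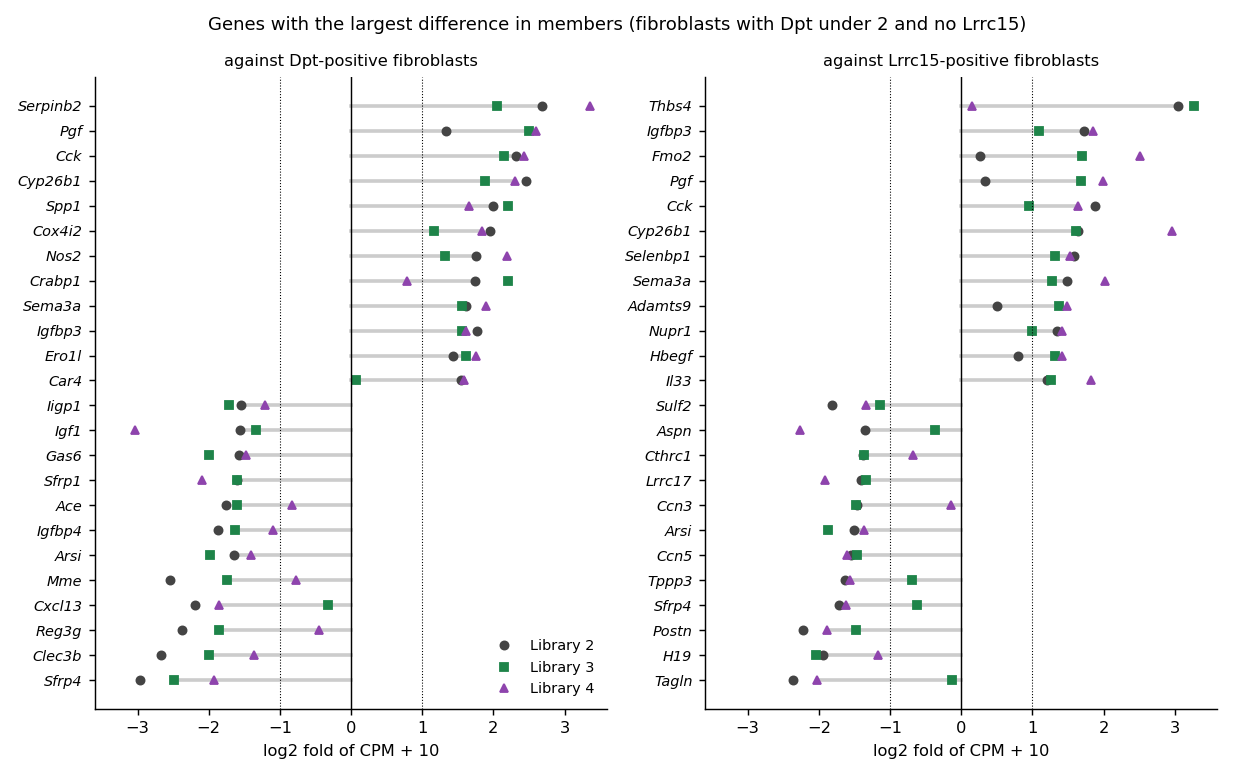
Log2 fold of CPM + 10 in the members against Dpt-positive (left) and Lrrc15-positive (right) fibroblasts, for the 12 called genes with the largest median in each direction. Points are libraries 2 to 4, grey bars end at the median and dotted lines mark a 2-fold difference. Serpinb2 had the largest median on the left and Thbs4 on the right, where library 4 gave 0.15.

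Against Lrrc15-positive fibroblasts, 29 of 6094 genes were called higher, or 0.476%, and 27 lower, or 0.443%, with a median log2 fold of all genes of -0.04. With library 2 left out 94 genes were called in all, and with library 3 left out 86, in place of 56. Fewer libraries then had to share a sign.

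The lower genes included matrix proteins and an actin-binding protein. Postn, periostin, a matrix protein of activated fibroblasts (chr3:54361109-54391037), was at 247 CPM in library 2 (221 to 275), 246 in library 3 (218 to 277) and 145 in library 4 (125 to 169), against 1192, 705 and 563 CPM. The median log2 fold was -1.88 and no library overlapped. Cthrc1, a secreted protein of scar-forming fibroblasts, was at 220, 155 and 180 CPM against 589, 416 and 294. Against the Dpt-positive cells, Postn was lower as well, at a median log2 fold of -1.12, while Cthrc1 gave -0.25 and was not called. Tagln, an actin-binding protein of contractile cells, was at 24.6, 37.1 and 1.68 CPM against 168, 41.8 and 37.6, so library 3 barely differed. The imprinted RNA H19 was at 35.04, 55.3 and 84.9 CPM against 163, 258 and 205. Sfrp4, Tppp3, Ccn5, Ccn3, Lrrc17, Aspn and Sulf2 were also among the 12 lowest.

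Of the 20 Lrrc15-linked genes, 16 were tested, 2 were called lower (Postn and Cthrc1) and none higher, beside 0.443% of all genes called lower. The median log2 fold of the list was -0.46. These 2 classes were split on Lrrc15, so lower Lrrc15-linked genes, Postn and Cthrc1 included, follow the way the members were chosen and support nothing further. Leaving out library 3 or library 4 gave 4 genes lower. Of 7 contractile genes tested, Tagln alone was called, as lower, beside the same 0.443%. Against Dpt-positive cells 17 genes of the Lrrc15-linked list were tested, 2 were higher (Tnc and Sdc1) and 2 lower (Postn and Spon1). Over all genes 0.857% were higher and 0.89% lower there, and the median log2 fold of the list was -0.19. Spon1, the matrix protein spondin 1, stood at 54.4, 44.4 and 58.9 CPM in members against 129, 130 and 66.7 in Dpt-positive cells. Tnc, the matrix protein tenascin C, had log2 folds of 1.25, 0.90 and 2.21 against Dpt-positive cells in libraries 2, 3 and 4, and of -0.13, 0.44 and 1.26 against Lrrc15-positive cells. The syndecan Sdc1 stood at 277, 308 and 321 CPM against 101, 148 and 97.8 in Dpt-positive cells and 168, 224 and 121 in Lrrc15-positive cells.

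Higher genes were led by Thbs4, thrombospondin 4, at 2283, 1627 and 19.3 CPM against 269, 160 and 16.5 in Lrrc15-positive cells. Its median log2 fold of 3.04 came from 12 cells described below: without them it was -0.19. Those cells were taken from the members only. The 4 Lrrc15-positive cells with at least 4 of Fmod, Thbs4, Comp, Tnmd and Scx stayed in, so the -0.19 sets unlike selections side by side. Igfbp3 was next, with 95.1, 128 and 31.0 CPM in Lrrc15-positive cells. Il33, an alarmin cytokine, was at 843, 834 and 970 CPM against 360, 341 and 266, and against 446, 343 and 394 CPM in Dpt-positive cells. Nupr1, a stress-response gene, was at 723, 391 and 529 CPM against 279, 192 and 193. Selenbp1, an oxidase of methanethiol, was at 83.5, 135 and 171 CPM against 21.1, 48.0 and 52.4. For Il33, Nupr1 and Selenbp1 the classes did not overlap over libraries. Fmo2, Pgf, Cck, Cyp26b1, Sema3a and Adamts9 were among the 12 largest too, and Fmo2 and Pgf had a log2 fold of only 0.26 and 0.33 in library 2.

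Among 22 inflammatory cytokine and chemokine genes tested, Ptgs2, Nos2 and Il33 were higher than in Dpt-positive cells and Cxcl14 was lower, while Il11 and Il33 were higher than in Lrrc15-positive cells. Over all genes, 0.857% were called higher and 0.89% lower than in Dpt-positive cells, and 0.476% higher than in Lrrc15-positive cells. The chemokine Cxcl5 was at 2762, 1475 and 3251 CPM against 896, 1354 and 1650 in Dpt-positive cells, a median log2 fold of 0.97 that missed the 2-fold limit. The acute-phase gene Saa3, the most abundant of the list, was at 7040, 1869 and 2655 CPM against 4329, 1480 and 2868, and was not called. Its order changed with the library. Timp1, an inhibitor of matrix metalloproteinases and the fourth most abundant transcript of the members, was at 10220, 7728 and 5560 CPM against 3887, 4812 and 2628 in Dpt-positive cells and 5300, 5383 and 3649 in Lrrc15-positive cells. It was called against the first only.

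Mt1, a metal-binding metallothionein, stood above both neighbours in each of these libraries. It was at 10052, 7289 and 8330 CPM in members, 5095, 5006 and 4681 in Dpt-positive cells and 4754, 5264 and 4192 in Lrrc15-positive cells. Over all members only Col3a1, a gene of the rule, had more UMIs. The median log2 folds of Mt1 were 0.83 and 0.99, under the 2-fold limit.

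Several other lists held few called genes. Over all genes, 0.89% were called lower than in Dpt-positive cells and 0.443% lower than in Lrrc15-positive cells. Of 13 fibrillar and other collagens tested, Col14a1 was lower against both neighbours and none was higher. Against Dpt-positive cells 7 were below 0 in each library and 2 above, at a median log2 fold of -0.32. Against Lrrc15-positive cells 8 were below and none above, at -0.45. Of 10 basement membrane genes none was called in either comparison. Of 10 collagen crosslinking genes none was called against Dpt-positive cells, though 8 were above 0 in each library with a median log2 fold of 0.46, and P4ha3 was lower against Lrrc15-positive cells. Of the interferon genes, 13 were tested against Dpt-positive cells and Cxcl9, a chemokine that draws T cells, was lower. None of 12 ferroptosis and antioxidant genes, 9 endoplasmic reticulum stress genes, 8 heat shock genes and 14 immediate early genes was called against either neighbour. Of the immediate early genes, 10 were below 0 in each library against Dpt-positive cells and none above, at a median log2 fold of -0.29. The limit is on the median over 3 libraries and does not show that smaller differences were absent.

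Of the gene lists described, the one of 20 hypoxia and glycolysis genes had the most genes called higher than in Dpt-positive cells. Against Dpt-positive fibroblasts 18 were tested, 7 were called higher (Ero1l, Slc2a1, Bnip3, Egln3, Vegfa, Hilpda and Pfkp) and none lower, beside the 0.857% of all genes called higher. The folds of 16 were above 0 in each library, and the median log2 fold was 0.95 against -0.06 for all genes. Against Lrrc15-positive fibroblasts 3 of 18 were called higher (Ero1l, Egln3 and Hilpda), beside 0.476% of all genes, 15 were above 0 in each library, and the median log2 fold was 0.55. These 3 calls were not stable: 1 was made without the cells with 3 or more epithelial UMIs, 1 with Dpt at 0, 1 with the fold of the sums over all libraries and 0 with a pseudocount of 50 CPM. Against Dpt-positive cells the pseudocount of 50 CPM left 4. The list was chosen with earlier results of these data known.

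The genes fell by role. Ero1l, an endoplasmic reticulum oxidase that helps form disulphide bonds, was at 221, 351 and 312 CPM in members, 75.2, 108 and 84.9 in Dpt-positive cells and 155, 163 and 101 in Lrrc15-positive cells. Slc2a1, the glucose transporter GLUT1 (chr4:119108711-119137983), was at 132, 218 and 201 CPM against 53.8, 68.8 and 60.7 and against 87.9, 107 and 89.7. For both genes the members lay above either neighbour in each library. Bnip3, a mitophagy receptor, was at 236, 312 and 360 CPM against 63.0, 105 and 138, and against 151, 196 and 215. Egln3, a prolyl hydroxylase of hypoxia-inducible factors, was at 34.3, 57.1 and 43.7 CPM against 9.95, 11.6 and 9.81, and against 24.3, 22.7 and 12.7, while leucocytes held 42.6, 38.3 and 36.5 CPM. Vegfa, the main vessel growth factor, was at 339, 285 and 302 CPM against 106, 128 and 107, and against 237, 177 and 101. Hilpda, a lipid droplet protein, was at 173, 314 and 189 CPM against 82.1, 145 and 81.2, but leucocytes held 454, 797 and 301 CPM, above the members.

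The glycolytic enzymes Pgk1, Ldha, Eno1 and Tpi1 had median folds above 0 but under 2-fold, with larger folds in library 2, and were not called. Pgk1, phosphoglycerate kinase, was at 1297, 1580 and 1508 CPM against 447, 821 and 826 in Dpt-positive cells and 667, 1152 and 985 in Lrrc15-positive cells. Ldha, lactate dehydrogenase A, was at 1703, 2265 and 2321 CPM against 800, 1401 and 1518. Eno1, enolase, had a median log2 fold of 0.97 and Tpi1, triosephosphate isomerase, one of 0.96. Hk2, hexokinase 2, and Adm, adrenomedullin, did not have 1 sign over libraries, at medians of -0.06 and 0.11. Ndufa4l2, a mitochondrial protein induced by low oxygen, and Cox4i2, a cytochrome c oxidase subunit, were called higher than in Dpt-positive cells. Both are on the mural list, with Ndufa4l2 at 933, 803 and 1140 CPM against 261, 371 and 409. Of that list, Higd1b was at 0, Notch3 was at 12.7, 9.06 and 3.36 CPM and Kcnj8 at 2.98, 5.44 and 0.841 CPM in the members. In Dpt-positive cells Notch3 was at 12.2, 14.0 and 8.10 CPM and Kcnj8 at 12.2, 9.59 and 2.21 CPM.

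**Figure D3:**
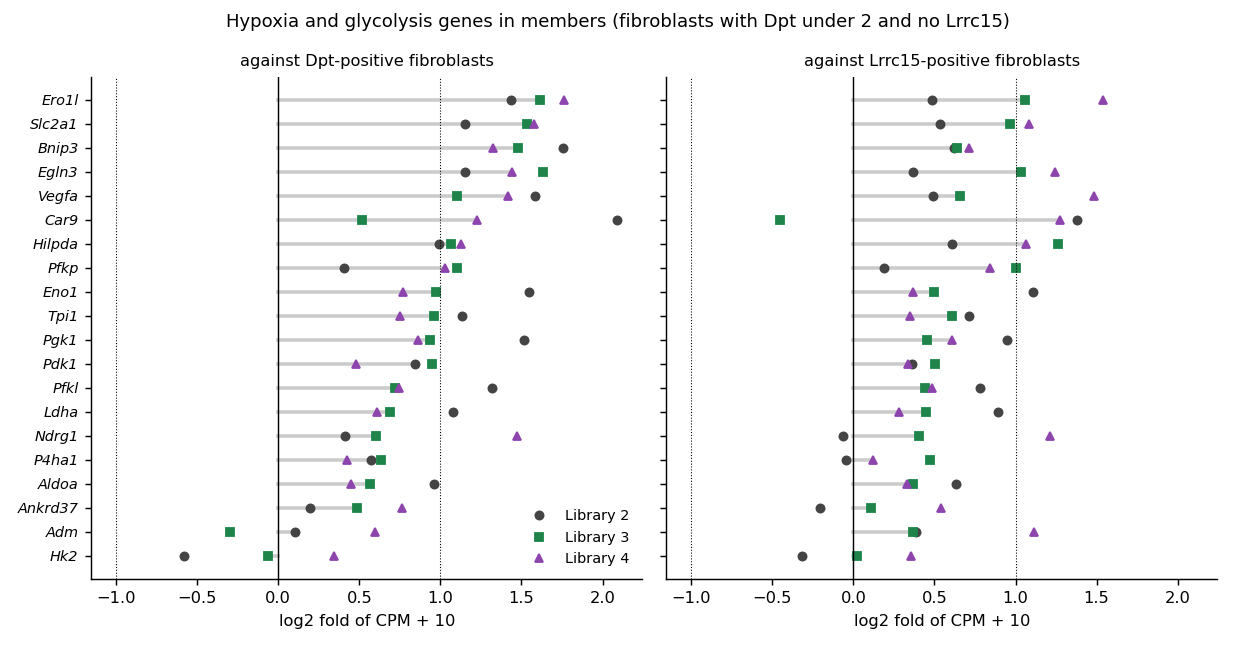
Log2 fold of CPM + 10 in the members against each neighbour for the 20 hypoxia and glycolysis genes, with points for libraries 2 to 4, grey bars to the median and dotted lines at a 2-fold difference. Median folds on the left were above 0 except for Hk2, and those on the right were smaller for most genes.

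Promoter sequence is shown for genes of this list that were each called higher than in Dpt-positive cells, to set the core letters named above beside them. RefSeq promoters (GRCm38.p6) were found for 6 of the 7, Ero1l excepted. In the 250 bases before the start, ACGTG occurred on either strand in 3 of 6 and in 16.6% of all 32851 promoters, GCGTG in 3 of 6 and in 28.2%, and either in 4 of 6 and in 38.6%. Vegfa and Hilpda had neither in this window. A match is a description of letters, not a bound site. The stretches below run 5′ to 3′ on the gene's strand up to the first annotated exon base and are shown for the 3 genes whose matches all lie before that exon, which leaves out Slc2a1. Capitals mark the matches on either strand (CACGT and CACGC are matches on the other one), and in Bnip3 CACGTG counts on both strands. They lie on the minus strand at chr7:138909520-138909756 (Bnip3), chr12:54203875-54204124 (Egln3) and chr13:6648778-6649021 (Pfkp).
Bnip3: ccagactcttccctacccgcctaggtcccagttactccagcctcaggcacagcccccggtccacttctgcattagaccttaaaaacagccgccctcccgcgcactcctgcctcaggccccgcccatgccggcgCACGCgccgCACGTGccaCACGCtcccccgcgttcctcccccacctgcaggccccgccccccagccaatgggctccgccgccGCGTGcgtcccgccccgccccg
Egln3: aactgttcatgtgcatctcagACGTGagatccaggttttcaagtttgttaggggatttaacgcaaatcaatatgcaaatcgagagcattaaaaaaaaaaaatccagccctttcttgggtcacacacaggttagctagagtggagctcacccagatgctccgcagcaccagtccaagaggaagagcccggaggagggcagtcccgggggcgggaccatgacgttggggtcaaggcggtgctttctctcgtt
Pfkp: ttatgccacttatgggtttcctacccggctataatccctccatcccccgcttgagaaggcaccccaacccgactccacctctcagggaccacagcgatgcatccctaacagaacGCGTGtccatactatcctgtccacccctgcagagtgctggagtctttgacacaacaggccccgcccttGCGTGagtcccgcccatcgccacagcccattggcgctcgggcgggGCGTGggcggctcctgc

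Cell by cell, the 20 genes took 0.548%, 0.559% and 1.02% of UMIs in the median member of libraries 2, 3 and 4. In Dpt-positive cells these medians were 0.248%, 0.318% and 0.447%, and in Lrrc15-positive cells 0.400%, 0.519% and 0.591%. The ranges overlapped widely, from 0.116% to 1.96% in members and from 0.0837% to 2.37% in Dpt-positive cells. The order of the classes depended on depth. Between 10000 and 40000 UMIs the medians were 0.676%, 0.624% and 1.06% in members, 0.237%, 0.295% and 0.395% in Dpt-positive cells and 0.368%, 0.360% and 0.390% in Lrrc15-positive cells. Within that range, at 10000 to 20000 UMIs, members of library 3 had 0.249%, below the 0.301% of Lrrc15-positive cells. Over the whole range 14 list genes were called higher than in Dpt-positive cells, while the calls over all genes rose as well, from 53 to 86 higher. In members of 5000 to 10000 UMIs the median was 0.284%, near the 0.230% of Dpt-positive cells of that depth and below the 0.431% of Lrrc15-positive cells. In those shallow cells members lay below Lrrc15-positive cells in each of libraries 2, 3 and 4, and in library 4 also below Dpt-positive cells (0.278% against 0.287%), but few cells stood behind this. There were 21, 11 and 9 members against 26, 5 and 2 Lrrc15-positive cells, and 9 Dpt-positive cells in library 4.

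The 5 members of library 1 did not share the pattern: the list summed to 3499 CPM there, against 4162 CPM in Dpt-positive and 5493 CPM in Lrrc15-positive cells. In libraries 2, 3 and 4 it summed to 8294, 10470 and 10806 CPM in members, against 3852, 5838 and 6247 CPM and 5179, 7264 and 7638 CPM. Members without a Dpt UMI had medians of 0.501%, 0.291% and 1.02% in libraries 2, 3 and 4 and those with 1 Dpt UMI 0.704%, 0.865% and 0.885%, so in libraries 2 and 3 the higher values lay with the cells that had a Dpt UMI and in library 4 with those that had none. The cells with a Dpt UMI were deeper in each, with medians of 18093, 24840 and 26406 UMIs against 14317.5, 13429 and 16561. Without library 4 the list counts became 11 against Dpt-positive and 0 against Lrrc15-positive cells, and without library 2 the latter became 5.

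**Figure D4:**
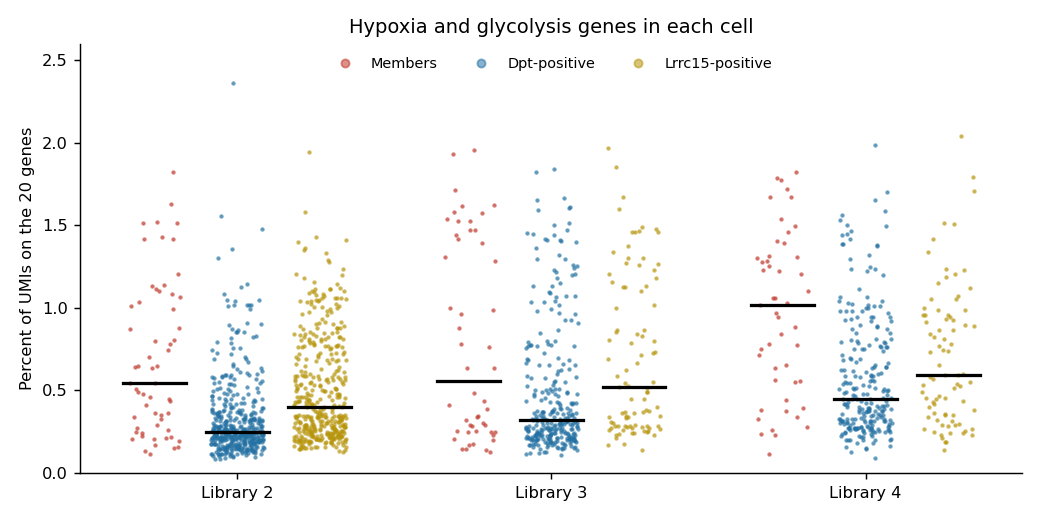
Percent of UMIs on the 20 hypoxia and glycolysis genes in each gated fibroblast (points) of libraries 2 to 4, by class, with medians as black bars. Medians of the members were 0.548%, 0.559% and 1.02%, each above that of the other classes, and the ranges overlapped.

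Clustered alone, without the genes of the rule, the 163 members fell into 4 subclusters. They are described by their leading genes, which is no test. Subcluster 1 (75 cells) was led by Apod, an apolipoprotein, and Smoc2, a matrix protein, together with the cell division genes Mki67, Birc5, Ccnb2, Cenpe and Top2a. Cyp1b1, Dio3 and Spc24 completed its 10 leading genes. Apod was at 2252 CPM and found in 30 of 75 cells, but it was also found in all 12 cells of subcluster 4, at 1602 CPM. After thinning, 27 of its cells (36.0%) had 3 or more UMIs over 6 proliferation genes, against 1, 2 and 0 cells of subclusters 2, 3 and 4. All 5 members of library 1 and 8 of the 10 members with doublet scores in the highest 5% were in subcluster 1.

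Over all members the share with 3 or more such UMIs was 18.4% (12.8% to 25.2%), or 30 cells, and 33.1% unthinned. It was 18.1% in Dpt-positive and 17.4% in Lrrc15-positive cells. In library 2 it was 15.3% in members, 11.9% in Dpt-positive and 12.4% in Lrrc15-positive cells, and in library 3 it was 20% (10 of 50 members), 21.6% and 18.5%. In library 4 it was 16.3% in members (7.32% to 29.7%), 25.6% in Dpt-positive (20.3% to 31.5%) and 45.1% in Lrrc15-positive cells (34.1% to 56.5%), where only the last lay outside the interval of the members. None of the 20 cell cycle genes was called against either neighbour, at median log2 folds of -0.54 and -0.60.

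Subcluster 2 (45 cells, 23 in library 2, 4 in library 3 and 18 in library 4) was led by Pi16, Inhbb, Serpina3n, Saa3, Csf3, Cyp26b1, Lcn2, Cpxm1, Car4 and Fmo2. Saa3 was at 12156 CPM in it against 1348 in the other members, Serpina3n, a serine protease inhibitor, at 1808 against 192, Lcn2, an iron-trapping lipocalin, at 1242 against 153 (but 1742 in subcluster 4), and Csf3, granulocyte colony-stimulating factor, at 379 against 35.4. Pi16, a marker of the universal fibroblast state, was at 1555 CPM against 140 and found in each of the 45 cells. Serpinb2 was at 3076 CPM, and Mt1 at 15092 CPM, their highest among the subclusters. This subcluster had the highest collagen share, with a median of 3.88% of UMIs.

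Subcluster 3 (31 cells, 13, 12 and 6 in libraries 2, 3 and 4) had the largest share of its UMIs on the hypoxia and glycolysis list. The median share of UMIs on the 20 genes was 1.52% (0.363% to 1.96%), against 0.438%, 0.776% and 0.184% in subclusters 1, 2 and 4. Vegfa was at 486 CPM and Bnip3 at 561, each found in 31 of 31 cells, Slc2a1 was at 379 CPM in 30 cells and Egln3 at 93.3 CPM in 25. The leading genes were Cck, Egr4, Cited1, Upp1, Vldlr, Selenbp1, Hmga2, Wnt5a, Krt19 and Pfkp. Pgf was found in 29 cells at 327 CPM, and Krt19 in 19 cells at 84.5 CPM. Epcam was at 1.10 CPM and Krt8 at 2.20 CPM in this subcluster. This subcluster was the deepest, with a median of 30012 UMIs.

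Subcluster 4 (12 cells, 6 in library 2 and 6 in library 3) was led by Fmod, Thbs4, Comp, Prg4, Tnmd, Kera, Mgp, Chodl, Scx and Angptl7, several of which are known from tendon, joint and cartilage. Thbs4 was at 23923 CPM against 77.2 in the other members, Prg4, lubricin, at 12363 against 141, Fmod, the proteoglycan fibromodulin, at 6511 against 6.89, and Comp, cartilage oligomeric matrix protein, at 2032 against 0.287. Tnmd, tenomodulin, was found in all 12 cells and Scx, the tendon transcription factor scleraxis, in 11. The 12 cells were the only members with at least 4 of Fmod, Thbs4, Comp, Tnmd and Scx. Such cells were also 18 of 1006 Dpt-positive cells (1.79%), 4 of 678 Lrrc15-positive cells (0.590%) and 1 of 22 cells high in Rgs5, against 7.36% of members, and none lay in libraries 1 or 4. Their median depth was 10349.5 UMIs and none had a doublet score in the highest 5%.

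The marker classes used for naming held no tendon class, so the tendon genes that led subcluster 4 were not weighed. Among the classes used, none but fibroblast had the 3 raised markers needed for a name. Subclusters 1 and 4 had 3 and 6 raised fibroblast markers beside 1 myeloid and 2 mural ones (the 6 include Dcn, a gene of the rule, and are 5 without it), subcluster 2 had 1 fibroblast and 1 adipocyte marker (Mmp2 and Fabp4), and subcluster 3 had no raised fibroblast marker, 1 epithelial marker (Krt19, among its 10 leading genes) and 1 mural marker (Cox4i2). Subclusters 2 and 3 were therefore given no name. Raised means 2-fold the other members, so a lack of raised markers does not mean that fibroblast markers were absent. Pdpn was found in all 45 and 31 of their cells, at 798 and 748 CPM, and Pdgfra in 39 and 29. The 20 further fibroblast markers summed to 26294 and 24668 CPM in them, against 23499 CPM in subcluster 1 and 35482 CPM in subcluster 4. The 6 markers of subcluster 4 are the raised ones only, and Pdgfra went the other way there. It was at 25.9 CPM in subcluster 4, in 16.7% of its cells, against 320, 299 and 181 CPM in subclusters 1, 2 and 3. Keeping to fewer or more clusters changed the number, from 2 at a resolution of 0.25 to 7 at 1.0. With library 3 left out 2 clusters were found, and the 6 cells with tendon genes that remained were joined to others in a cluster of 72, as they were in one of 61 without library 2.

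**Figure D5:**
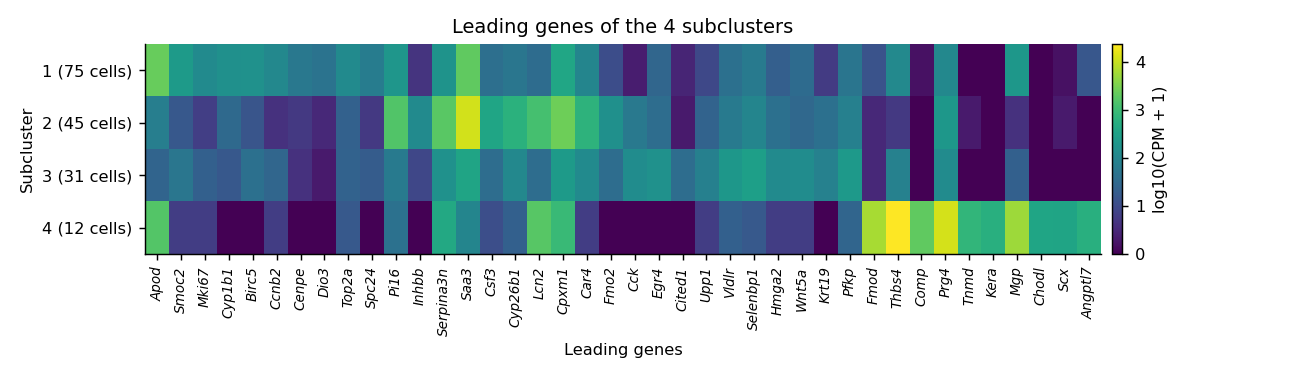
Level, as log10(CPM + 1) in colour, of the 10 leading genes of each of the 4 subclusters of the members (rows), with the number of cells. Fmod, Thbs4, Comp and Tnmd were high in subcluster 4 only, while Saa3 was highest in subcluster 2.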

How the data were processed

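Single-cell RNA-seq (10x Genomics) of 4 tumour samples was deposited by the authors as 1 gene by barcode matrix of UMI counts, not normalized, with 55450 genes and 33064 barcodes. Cell Ranger is given as version 2.1.1 with build mm10 in the submitters' processing notes, 3.0.2 in the design text and 6.1.2 in the matrix header. The design text states 15603 cells after its filter, whereas 32133 barcodes passed the same limits here (300 genes, 15% mitochondrial). The paper divides the 15603 cells between a PBS and a TIOs+NIR group, while the 32133 cover all 4 libraries, so the sets of samples may be unlike. Libraries held 108646352, 81369540, 69255999 and 96493208 UMIs, and 101 barcode sequences occurred in 2 libraries, none of them of a member.

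Fold changes were taken inside libraries on CPM + 10, for genes of at least 20 CPM in either class. The code was tested on simulated data. Intervals are exact binomial (Clopper-Pearson) or exact Poisson at 95% and cover counting error only. Clusters used scanpy 1.11.5 (2000 variable genes, 30 principal components, 20 neighbours, Leiden at 0.5). Scrublet scored doublets, and none was removed. Genes were located in GENCODE vM21, with all 55450 identifiers found. Text names the 12 called genes of largest fold per direction (some not spelled out), 10 leading genes per subcluster, and genes of lists. Members and lists were chosen with earlier results of these data known. Cells high in Rgs5 numbered 22, too few to compare. Leaving out libraries, other thresholds, depths and clusterings were tried. Aldoa has 2 identifiers in the matrix, and the one with more UMIs was used.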

Additional observations from a re-analysis of the deposited data

How the results depend on the processing

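Of 51 named genes called against Dpt-positive cells, 18 kept their call under all 15 settings, as did 4 of 36 against Lrrc15-positive cells, and Thbs4 against Lrrc15-positive cells reversed, to -0.19, without the Fmod, Thbs4 and Comp subcluster (a setting, like the depth range and the epithelial limit, chosen after seeing the data). That subcluster was taken from the members only, while 4 Lrrc15-positive cells with at least 4 of the 5 tendon genes stayed in. The cause of each change was not tested unless fewer libraries or genes entered. Genes called against Dpt-positive cells were 177 with a pseudocount of 1 CPM, 32 with 50 CPM, 60 with a filter of 100 CPM and 207 in cells of 10000 to 40000 UMIs, and 98 to 161 over the fits that left out 1 library. Against Lrrc15-positive cells they were 86, 17, 35 and 85 under these settings, 107 as the fold of the sums over all libraries, and 56 to 94 with 1 library left out.

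Hypoxia and glycolysis genes higher than in Dpt-positive cells were 4 with a pseudocount of 50 CPM and 14 at 10000 to 40000 UMIs, and 7 to 11 with 1 library left out. Against Lrrc15-positive cells they were 0 with 50 CPM, 1 as the fold of the sums, 1 with Dpt at 0, 1 without cells with 3 or more epithelial UMIs, and 0 to 5 with 1 library left out. Dpt-linked genes lower were 6 as the fold of the sums, 5 with Dpt at 0, 7 at 10000 to 40000 UMIs, and 2 to 7 with 1 library left out. Lrrc15-linked genes lower were 6 as the fold of the sums and 2 to 4 with 1 library left out.

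The number of members was 87 with collagens at 2%, 251 at 0.5%, 80 with Dpt at 0 and 764 when the rule was read after thinning. The share of gated fibroblasts that are members was 7.19% at a minimum of 10000 UMIs, 6.24% with collagens at 2%, 4.33% with Dpt at 0 and 41.4% after thinning, and 7.78% to 11.3% with 1 library left out. The share of members with a proliferation UMI, counted from 3 UMIs after thinning (18.4%), was 33.1% from 3 UMIs unthinned and 37.4% from 1 UMI after thinning, and 17.1% to 20.2% with 1 library left out. The share of members with an epithelial UMI, counted in the same way (3.68%), was 14.1% from 3 UMIs unthinned, 18.4% from 1 UMI after thinning and 1.27% to 5.77% with 1 library left out. The subclusters of members numbered 2 at a resolution of 0.25, 7 at 1.0 and 2 to 4 with 1 library left out. Alternatives for cells high in Rgs5 could not be run, as no library held 20. The classes were compared inside each library. Of the treatments, no paired analysis was possible because no barcode is linked to a sample.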

Other observations

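Cd3e, which encodes a chain of the T-cell receptor complex, stood at 403, 188 and 28.6 CPM in the members of libraries 2, 3 and 4, above the 42.1, 76.2 and 14.8 CPM of leucocytes in the same libraries. Dpt-positive cells held 257, 160 and 36.4 CPM and Lrrc15-positive cells 436, 336 and 20.2 CPM of Cd3e. The other chains did not follow: Cd3d had no UMI in the members of libraries 2 and 3 and stood at 0.841 CPM in library 4, and Cd3g was at 0, 0.906 and 1.68 CPM. In leucocytes Cd3d was at 42.9, 87.8 and 16.7 CPM. Over all libraries these leucocytes, of at least 5000 UMIs each, held 210 CPM on the 7 lymphoid markers and 18397 CPM on the 11 myeloid ones. The source of the Cd3e UMIs was not tested.

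Haemoglobin was low in the members, with Hbb-bs at 1.49, 3.62 and 12.6 CPM in libraries 2, 3 and 4, while Lrrc15-positive cells of library 4 held 817 CPM. Wt1, a transcription factor of mesothelium and some mesenchyme, stood at 49.96, 44.4 and 16.8 CPM in the members and 19.1, 14.9 and 9.83 CPM in Lrrc15-positive cells, a median log2 fold of 1.04, with the other 3 mesothelial markers at 0. H2-Ab1, an MHC class II chain, stood at 69.3, 94.2 and 120 CPM in the members against 28.5, 37.7 and 50.9 in Dpt-positive cells, while Cd74, the class II invariant chain, was at 47.0, 80.6 and 65.6 against 44.9, 38.4 and 69.8 CPM. Leucocytes held 1581, 1392 and 830 CPM of H2-Ab1.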
